A study of Arabidopsis thaliana with 12 samples.

Results

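CHLM, AT1G74470 and Z-ISO are 3 genes of chlorophyll and carotenoid synthesis, each taken by its locus and read from an array probe annotated to that gene alone. Each had 1 such probe, and together they made up 3 of 689 genes with a probe of their own. The rule that picks the probes uses no difference between the groups, but the genes were chosen with earlier results of these data known. Their levels were compared between 6 readings of the toc90 mutant and 6 readings of the wild type (WT) of Arabidopsis thaliana, both in ecotype Columbia 0, from total RNA hybridised to a single-channel array. Per the labels, the toc90 mutant takes up proteins poorly through the outer membrane of the chloroplast envelope. The labels name no allele, tissue, age or growth regime. The labels do not say whether readings came from separate plants, so p-values speak only of the variation among these readings, part or all of which could be technical. In bulk RNA of this kind, fewer green cells and less RNA per cell cannot be told apart.

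Chlorophyll is made in the plastid from glutamate through a chain of tetrapyrroles, into which magnesium is inserted before a phytyl tail is attached. Carotenoids are made in the plastid from geranylgeranyl diphosphate, which is joined to phytoene and then desaturated and isomerised. Geranylgeranyl groups also feed the phytyl tail of chlorophyll and of tocopherol, so the pathways share a precursor. The enzymes are encoded in the nucleus and imported into plastids, and TOC90 belongs to the family of receptor GTPases that recognise such proteins at the chloroplast surface.

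The deposited array values ran on a linear scale with a floor at 0, and the groups differed in their dim probes. The share of probes listed at 0 was 20.3% to 33.4% in toc90 readings and 13.5% to 17.3% in WT readings. With zeros counted, column medians were 0.0593 to 0.0687 in toc90 and 0.151 to 0.157 in WT. Column means, zeros counted too, overlapped, at 0.736 to 1.06 in toc90 and 0.768 to 1.03 in WT. None of 12 tissue markers chosen for green tissue, seed, root and flower had a listed probe, so the tissue was not checked against them, and TOC90 itself was not analysed here. Precision is limited by how few arrays there are.

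Z-ISO, the enzyme that isomerises the central double bond of zeta-carotene on the way to lycopene, was the gene of the 3 that separated the groups. It was listed at 0 in 6 of 6 toc90 readings and above 0 in 6 of 6 WT readings. The WT readings had a lowest value of 0.0204, a median of 0.104 and a highest value of 0.149, with a mean of 0.0895 ± 0.0496 (SD, n = 6). The groups did not overlap. Because every toc90 reading lay at the floor, no fold change can be given, and the limma fit on log2 values, which leaves zeros out, had no value for the gene.

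The difference in mean deposited value, toc90 minus WT, was -0.0895 for Z-ISO (two-sided exact permutation p = 0.00216, the smallest that 924 assignments can give, Benjamini-Hochberg adjusted p = 0.0101 over all 3439 probes). By that test 1 of the 3 genes was called, Z-ISO, against 34.8% of all probes called in either direction and 32.1% called lower in toc90, so a share of 1 in 3 is near that of the whole table. Of all probes, 19.9% had every toc90 reading below every WT reading, as Z-ISO had. When numbers 1 and 2, 3 and 4, and 5 and 6 were averaged first, leaving 3 values a group, Z-ISO had an exact permutation p of 0.1, the smallest possible there. With the reading number as a replicate block, its exact p was 0.0312, also the smallest possible there, and its adjusted p 0.0854. Neither setting could call any probe at an adjusted p under 0.05, so neither bears on Z-ISO in particular.

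**Figure D1:**
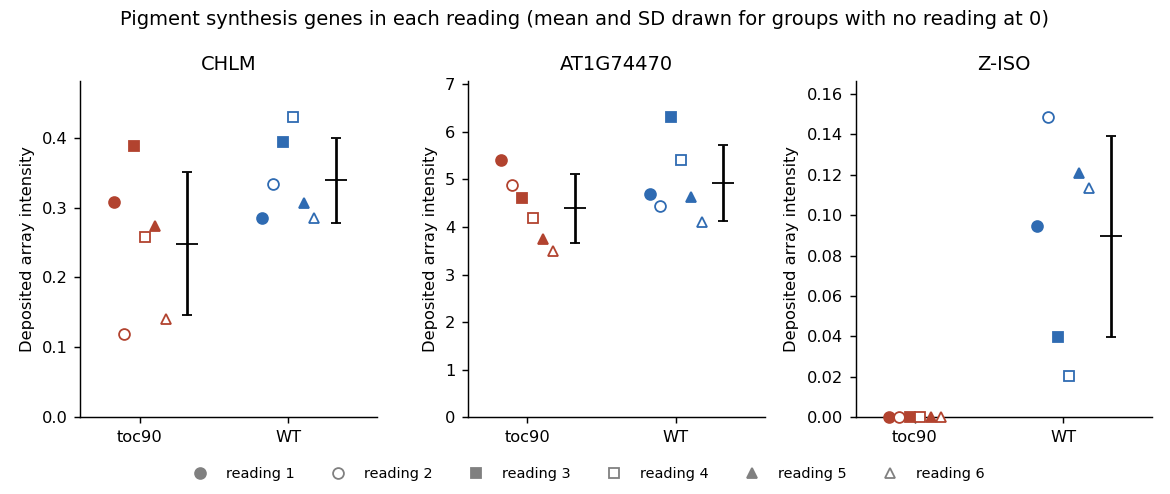
Deposited array intensity (y axis, linear) of CHLM, AT1G74470 and Z-ISO in the 6 toc90 and 6 WT readings, 1 symbol per reading, with circles, squares and triangles for numbers 1 and 2, 3 and 4, and 5 and 6. Black bars give the mean and SD of groups with no reading at 0. Z-ISO lies at 0 in 6 of 6 toc90 readings and between 0.0204 and 0.149 in WT, while the groups overlap for CHLM and for AT1G74470.

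The full pattern of Z-ISO, at 0 in all 6 toc90 readings and above 0 in all 6 WT readings, was rarer than a fall by the permutation test. It was found in 21 of 3439 probes, or 0.611%, and the opposite pattern in 0 probes. Of the 21 probes, 4 were annotated to a single gene, namely Z-ISO, AT3G20150, AT2G47360 and AT3G50350, the last 3 named after their values were seen. Their WT means were 0.160 ± 0.0302 for AT3G20150, 0.107 ± 0.0272 for AT2G47360 and 0.204 ± 0.0917 for AT3G50350 (SD, n = 6 each), all above that of Z-ISO. The WT means of the 21 probes ran from 0.0203 to 0.265 with a median of 0.0965, so Z-ISO stood near their middle.

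The level of Z-ISO in WT was itself low. Its WT mean was brighter than 33.8% of all probes, a rank of signals on different probes and not of transcript amounts. Among the 495 probes with a WT mean between 0.05 and 0.1, where Z-ISO lies, 84.6% had at least 1 toc90 reading at 0, and the median probe had 2. Of the 452 probes in that range with all WT readings above 0, 7 (1.55%) were at 0 in all toc90 readings. That share was 0.331% for WT means between 0.2 and 0.4, and 0% from 0.4 upward. Readings at the floor were thus common among dim probes in toc90, and their part in the difference of Z-ISO was not tested.

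**Figure D2:**
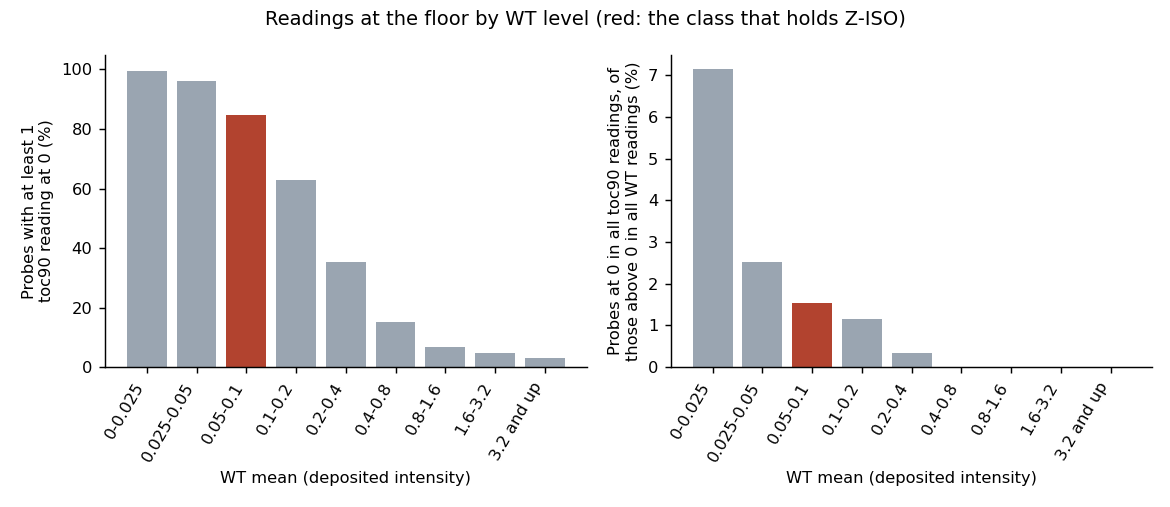
Readings at the floor by WT mean of the probe (x axis, deposited intensity, in classes). The left panel gives the percentage of probes with at least 1 toc90 reading at 0, and the right panel the percentage of probes at 0 in all 6 toc90 readings among those above 0 in all 6 WT readings. The class that holds Z-ISO is red, at 84.6% on the left and 1.55% on the right, and both percentages are lower in brighter classes.

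Within WT, the Z-ISO readings varied more than those of the other genes, with a coefficient of variation of 55.4%, against 17.8% for CHLM and 16.2% for AT1G74470. Numbers 3 and 4 held the 2 lowest WT values, at 0.0398 and 0.0204, and the other 4 readings ran from 0.0944 to 0.149. These same columns had the largest shares of zeros in WT, at 17.2% and 17.3%. The 5th percentile of positive values was 0.00755 to 0.0138 in toc90 columns and 0.0221 to 0.0319 in WT columns, so the lowest WT value of Z-ISO, 0.0204, lay above the first range and below the second.

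CHLM, the magnesium-protoporphyrin IX methyltransferase that acts just after magnesium insertion in chlorophyll synthesis, did not pass the tests. Its toc90 readings had a lowest value of 0.119, a median of 0.266 and a highest value of 0.388, against 0.285, 0.320 and 0.430 in WT. In toc90 the readings numbered 2, 4, 5 and 6 lay below every WT reading, while 1 and 3 lay within the WT range, so the groups overlap. The mean was 0.248 ± 0.102 in toc90 and 0.339 ± 0.0603 in WT (SD, n = 6 each), which puts toc90 at 73.2% of WT.

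The difference of CHLM in deposited mean, -0.0910, had a two-sided exact permutation p of 0.0887 and an adjusted p of 0.179 over all probes. Without toc90 reading 3 it was -0.119 and was called (exact permutation adjusted p = 0.0481). On the quantile normalized log2 scale the difference, toc90 minus WT, was -0.17 ± 0.22 (SE, limma adjusted p = 0.616), with a 95% interval of -0.65 to 0.32. Without toc90 reading 2 it was -0.03, and without toc90 reading 1 it was -0.27. The interval covers differences in either direction.

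The spread of CHLM was larger in toc90 than in WT. Its coefficient of variation was 41.3% in toc90 and 17.8% in WT. Neighbouring readings of toc90 differed by factors of 1.50 to 2.58, against 1.08 to 1.17 in WT. Each of the 3 toc90 pairs thus disagreed more than any WT pair. Dividing each value by its column's mean narrowed the WT readings to a coefficient of variation of 6.94%, but left that of toc90 at 36.4%.

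AT1G74470, the geranylgeranyl reductase that makes the phytyl tail of chlorophyll and tocopherol, was the brightest probe of the 3. Its toc90 readings ran from 3.50 through a median of 4.40 to 5.41, against 4.11, 4.67 and 6.31 in WT. Numbers 5 and 6 of toc90 lay below every WT reading, and no toc90 reading lay above the WT range. The mean was 4.39 ± 0.717 in toc90 and 4.93 ± 0.799 in WT (SD, n = 6 each), which puts toc90 at 89.0% of WT, a gap smaller than the SD of either group.

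The difference of AT1G74470 in deposited mean, -0.543, had a two-sided exact permutation p of 0.249 and an adjusted p of 0.394 over all probes. On the quantile normalized log2 scale it was -0.46 ± 0.19 (SE, limma adjusted p = 0.0934), with a 95% interval of -0.86 to -0.05. Without toc90 reading 1 it was -0.54 and was called (limma adjusted p = 0.0479), and without toc90 reading 4 it was -0.35 and was not (0.155). The deposited difference of AT1G74470 was -0.267 without WT reading 3 (exact permutation adjusted p = 0.646). Of the 2 tested genes of the set, CHLM and AT1G74470, limma called 0, against 23.9% of 2687 probes tested in either direction and 17.0% called lower in toc90. At an unadjusted p under 0.05 limma counted AT1G74470, at 0.0296, but not CHLM, at 0.464, and 36.2% of all probes tested were under that threshold.

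AT1G74470, unlike CHLM in toc90, varied little between neighbouring readings. They differed by factors of 1.07 to 1.11 in toc90 and 1.06 to 1.17 in WT. The pair means differed more, at 5.14 (numbers 1 and 2), 4.40 (3 and 4) and 3.62 (5 and 6) in toc90, against 4.57, 5.86 and 4.37 in WT. Numbers 3 and 4 thus held the highest values in WT, for AT1G74470 as for CHLM, and the lowest for Z-ISO. In WT these 2 columns also had the highest means over all probes, at 1.02 and 1.03. Divided by the column mean, AT1G74470 had a coefficient of variation of 6.30% in WT, against 16.2% before. In toc90 it was 23.6%, against 16.3% before.

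The sign of both differences turned with the scaling of the columns. The median log2 difference of all tested probes was -0.21 after quantile normalization, 0.01 after median scaling and -0.72 with values as deposited. With median scaling AT1G74470 stood at 0.53 ± 0.18 and was called higher in toc90 (SE, limma adjusted p = 0.0465), or 0.52 relative to the median probe. With values as deposited AT1G74470 stood at -0.17 and CHLM at -0.55, which relative to the median probe are 0.55 and 0.17. After quantile normalization the relative values were -0.25 for AT1G74470 and 0.04 for CHLM, so CHLM stood at the 52.5th percentile of all tested probes.

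**Figure D3:**
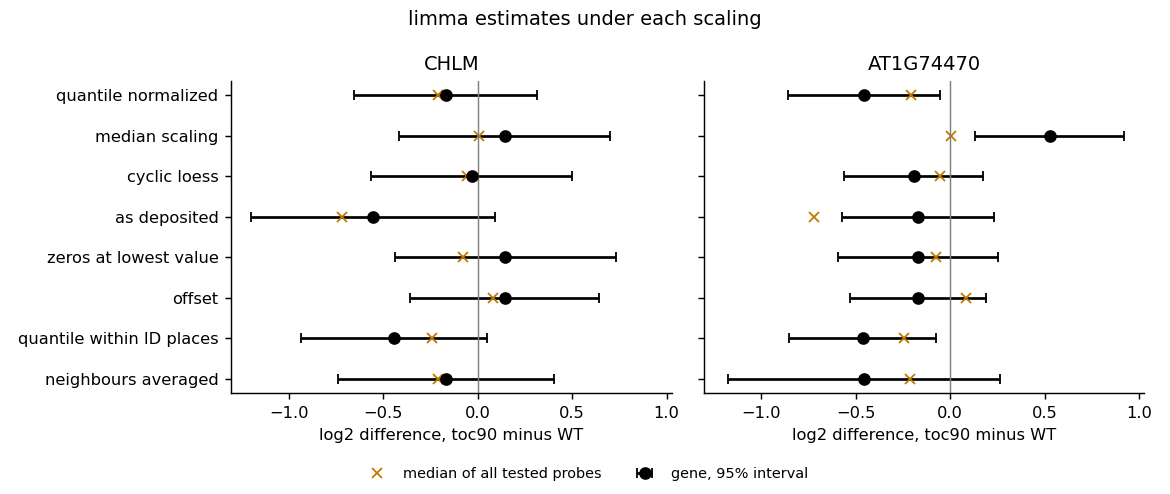
The log2 difference, toc90 minus WT (x axis), of CHLM and AT1G74470 from limma under 8 scalings and treatments of zeros (rows), with 95% intervals, and the median of all tested probes in each as a cross. CHLM lies between -0.55 and 0.15 with intervals that include 0. AT1G74470 lies between -0.46 and -0.17, except with median scaling, where it is at 0.53.

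Dividing by the column mean and by the column median gave opposite directions for these genes. Relative to the column mean, AT1G74470 was 5.29 ± 1.25 in toc90 and 5.70 ± 0.359 in WT (SD, n = 6 each, exact permutation adjusted p = 0.600). Relative to the column median, AT1G74470 was 71.1 ± 12.4 in toc90 and 32.1 ± 5.46 in WT, and here the 6 toc90 readings all exceeded the highest WT reading (exact permutation adjusted p = 0.0104). These column medians count the zeros and were lower in toc90, at 0.0593 to 0.0687 against 0.151 to 0.157 in WT. This division thus raises every toc90 value above 0 relative to WT, whatever the gene. Limma with median scaling, a different division whose medians leave zeros out, called 16.0% of all probes tested higher in toc90. CHLM, divided by the column median, had 4 of 6 toc90 readings above the WT range, with a mean 1.79 higher in toc90, and was not called (exact permutation adjusted p = 0.101). Z-ISO, at 0 in toc90, stays lower under any such division, which cannot change its exact permutation p. Its exact permutation adjusted p, 0.0102 for the mean and 0.0104 for the median, therefore does not test the scaling.

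Probes of like brightness give a frame for these values. Among the probes with a WT mean between 0.2 and 0.4, which include CHLM, the median log2 ratio of the deposited group means was -0.92. CHLM, at -0.45, stood higher than 67.6% of them. Among those at 3.2 and above, which include AT1G74470, the median was 0.01. AT1G74470, at -0.17, stood higher than 33.3% of them and within their quartiles of -0.27 and 0.30. Both genes thus lay inside the broad middle of their brightness class. The classes are set by the WT mean, which is also the denominator of the ratio, so class medians can shift with it. In the dimmest class, with WT means under 0.025, the median was 1.98.

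All 3 probes lay in the first place when probe IDs were grouped in runs of 3 blocks of 96, a grouping picked on these data. With quantile normalization within each place, CHLM moved to -0.44 ± 0.23 (SE, limma adjusted p = 0.178) and AT1G74470 stood at -0.46 (0.0811), and neither was called. Of the 1109 probes in the first place, 5 (0.451%) shared the pattern of Z-ISO, while the second place had 10 of 1169 (0.855%) and the third had 6 of 1161 (0.517%).

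A ratio within a reading is free of the scale factor of its column. The log2 ratio of AT1G74470 over CHLM averaged 4.25 ± 0.654 in toc90 and 3.87 ± 0.152 in WT (SD, n = 6 each), a difference of 0.38 that is smaller than the toc90 SD and was not tested. It was 0.16 without toc90 reading 2, and with quantile normalized values, which rescale bright and dim probes differently, it turned to -0.29. The toc90 ratios ran from 3.57 to 5.36 and enclosed the WT range of 3.65 to 4.05. In WT the readings stayed close together although the single values of both genes were highest in numbers 3 and 4. In toc90 the highest ratios were those of numbers 2 (5.36) and 6 (4.64), the readings with the lowest CHLM values.

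**Figure D4:**
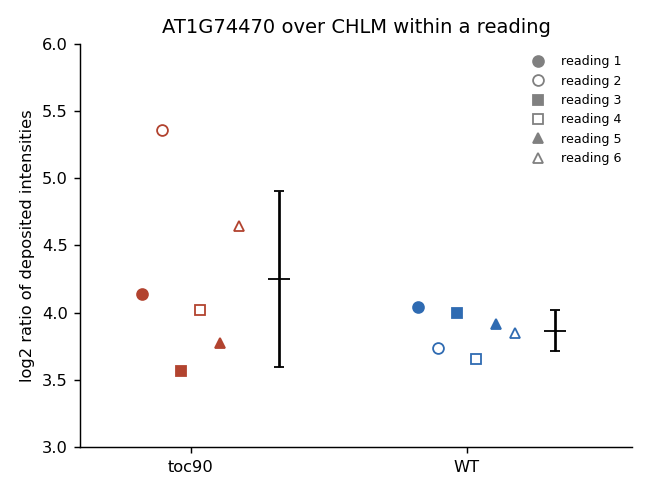
The log2 ratio of the deposited intensities of AT1G74470 over CHLM (y axis, which starts at 3) within each of the 6 toc90 and 6 WT readings, with the mean and SD of each group as black bars. The toc90 readings spread from 3.57 to 5.36, around the WT readings between 3.65 and 4.05.

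Few other genes of these pathways had a probe of their own. Of 35 listed genes of chlorophyll and tetrapyrrole synthesis, 4 did, namely CHLM, AT1G74470, HEMA3 and AT5G63290. Of 25 listed genes of carotenoid synthesis and cleavage, 1 did, which was Z-ISO. Of 17 listed genes of plastid isoprenoid supply and tocopherol synthesis, 1 did, AT1G78620, and of 9 listed genes of the chlorophyll cycle and breakdown, 0 did. Another 4 tetrapyrrole genes and 1 carotenoid gene were on probes shared with other genes and were not read. Of these 6 genes, 4 could be tested by limma. It called 0 of them higher and 0 lower, against 23.9% of all probes called in either direction, so 4 genes are too few to differ from that share. AT1G74470 alone was under an unadjusted limma p of 0.05, against 36.2% of all probes tested. With median scaling 1 of the 4, AT1G74470, was called higher, against 16.0% of all probes.

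HEMA3, one of the glutamyl-tRNA reductase genes whose product opens tetrapyrrole synthesis, had toc90 readings from 0.404 through a median of 0.570 to 0.674, against 0.526, 0.880 and 1.08 in WT. Readings 1, 2 and 3 of toc90 lay below every WT reading. The mean was 0.562 ± 0.106 in toc90 and 0.816 ± 0.206 in WT (SD, n = 6 each), with an exact permutation p of 0.0303 and an adjusted p of 0.0777. The log2 difference of HEMA3 was -0.46 ± 0.21 (SE, limma adjusted p = 0.138) and turned to 0.18 with median scaling. HEMA3 did not pass in either test, and its WT readings fell apart by number, with 5 and 6 at 0.526 and 0.618 and the other 4 at 0.865 and above.

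AT1G78620, the phytyl-phosphate kinase VTE6 that recycles phytol for tocopherol, is a downstream user of the phytyl groups that AT1G74470 makes. Its toc90 readings ran from 0.137 through a median of 0.503 to 0.874, against 0.123, 0.471 and 0.618 in WT. Readings 3, 5 and 6 of toc90 lay above every WT reading and the other 3 below the WT mean. The log2 difference was 0.38 ± 0.54 (SE, limma adjusted p = 0.637), with a 95% interval of -0.79 to 1.56. That value was 0.02 without WT reading 2, 0.60 without toc90 reading 1, 0.08 with values as deposited and 0.77 with median scaling, and was not called in any of these. In both groups numbers 1 and 2 were the lowest readings, at 0.137 and 0.163 in toc90 and 0.229 and 0.123 in WT.

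AT5G63290, which encodes a protein like the oxygen-independent coproporphyrinogen oxidase, was at the floor nearly throughout. It was listed at 0 in 4 of 6 toc90 readings and 6 of 6 WT readings. Numbers 3 and 4 of toc90 had 0.0374 and 0.0148. The exact permutation p was 0.455 (adjusted p = 0.600), and the gene was not tested by limma.

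**Figure D5:**
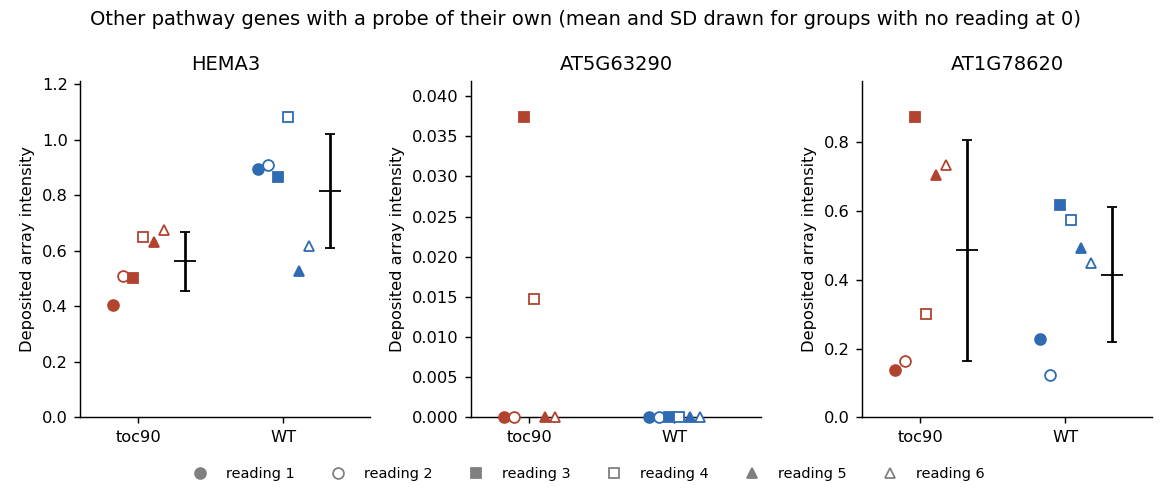
Deposited array intensity (y axis, linear) of HEMA3, AT5G63290 and AT1G78620 in the 6 toc90 and 6 WT readings, with symbols for reading numbers and black bars for the mean and SD of groups with no reading at 0. The groups overlap for HEMA3 and AT1G78620, and AT5G63290 is above 0 in 2 toc90 readings.

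On quantile normalized values, the 3 genes did not follow one pattern across the 12 readings. Ranks across readings change with the scaling of the columns, and the correlations were computed on this scale alone. The Spearman correlation of quantile normalized values, zeros as the lowest rank, was 0.79 between AT1G74470 and Z-ISO, where the 6 tied toc90 values of Z-ISO carry the difference between groups. It was 0.007 between CHLM and AT1G74470 and 0 between CHLM and Z-ISO. The readings share their columns' depth and scale and neighbours may share an extract, so these values are given as descriptions.

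Among the other single-gene probes, the genes most like CHLM, of 524 compared, were DAL1 (rho = 0.79) and AT1G77730 (0.78). Those most like AT1G74470 were AT1G06730 (0.93) and AT1G76050 (0.90). AT1G06730 averaged 0.172 ± 0.109 in toc90 and 1.32 ± 0.200 in WT (SD, n = 6 each), a wider gap between groups than that of AT1G74470. Those most like Z-ISO, of 525 compared, were AT5G49840 (0.93) and AT2G28540 (0.93), which averaged 0.0177 ± 0.0213 and 0.0200 ± 0.0153 in toc90, against 0.196 ± 0.0455 and 0.195 ± 0.0109 in WT. All these likenesses come from quantile normalized ranks alone. On that scale AT1G74470 was lower in toc90, while with median scaling it was higher. Of all probes, 19.9% had every toc90 reading below every WT reading in deposited values. The likenesses are the highest of many candidates and are given as descriptions.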

How the data were processed

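The deposited table held array intensity for a single channel, running from 0 to 100. How the authors scanned, corrected and scaled this intensity is not given in the sources used here. Groups and numbers came from the sample titles, and 0 columns were left out. Of 3439 probes, 692 had 1 annotated gene, 870 several and 1877 none listed, and 690 of the 692 matched a reference gene table (TAIR10.1, names only).

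Deposited values, zeros included, were compared with two-sided exact permutation tests over 924 assignments, adjusted by Benjamini-Hochberg over all probes. In parallel, log2 values with zeros missing were quantile normalized and tested with limma 3.58.1 (R 4.3.3) on the 2687 probes with at least 3 values per group, at an adjusted p under 0.05. Both were run on simulated independent normal readings with a known shift. The simulated readings had no zeros, no differences in column scale and no correlation between neighbours, so these runs do not bear on those features. The offset alternative added 0.0137 before log2. Figures were drawn with matplotlib 3.10.9.

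The members and gene lists were chosen with earlier results of these data known. Named genes were the 3 members, list genes with a probe of their own, and for each member the 2 genes of highest Spearman correlation among probes above 0 in at least 9 of 12 readings. Same-numbered readings correlated across groups at 0.08 to 0.25 in their deviations from the group means over 1474 probes, 1 of 6 pairs being under 0.1. The numbers were not taken as pairs in the main tests. Neighbouring numbers correlated at 0.43 to 0.52 in WT and at -0.08 to 0.35 in toc90. Readings may therefore not be independent, and the tests on 6 readings a group do not allow for this.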

Additional observations from a re-analysis of the deposited data

How the results depend on the processing

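Limma called 643 of 2687 probes tested. Of the same 2687, deposited values without normalization gave 981, the replicate block 418 and neighbouring readings averaged 107. Cyclic loess gave 353 of 1474 probes tested. Zeros raised to the lowest positive value gave 258 of 3439, the number also tested with an offset. Leaving out 1 reading gave 475 to 620 calls, of 2500 to 2674 probes tested. The split of 186 higher and 457 lower calls became 431 and 339 with median scaling, 180 and 173 with cyclic loess, 85 and 896 without normalization, 142 and 116 with zeros raised, and 261 and 305 with an offset. The cause was not tested. CHLM turned to 0.145 (median scaling), 0.1477 (zeros at the lowest value) and 0.1441 (offset) in log2, never called, and to 1.79 in deposited difference over column medians. It ranged from -0.27 to -0.03 in log2 and from -0.119 to -0.0652 in deposited units with 1 reading left out. AT1G74470 turned to 0.53 with median scaling and to 39.0 over column medians, both called, and ranged from -0.54 to -0.35 and from -0.747 to -0.267 with 1 reading left out. HEMA3 turned to 0.18 with median scaling. Z-ISO, not tested by limma with zeros left out, was called once zeros had a value, at -11.97 with the lowest positive value (adjusted p = 0.00118) and -1.95 with an offset (0.00195), sizes set by the floor chosen. The deposited difference of Z-ISO was not called for group medians (-0.104, exact permutation adjusted p = 0.131). It was also not called with neighbours averaged (-0.0895, 0.249) or with the replicate block (-0.0895, 0.0854). Its p was the smallest possible in both of these, so no probe could be called in them. The deposited difference of Z-ISO remained called with each reading left out (-0.103 to -0.0777). With median scaling 1 of 4 list genes was called (AT1G74470), against 770 of 2687 probes. Of 6 list genes, 1 was called with zeros at the lowest value, against 258 of 3439 probes, and 1 with an offset, against 566 of 3439 (Z-ISO each). Without toc90 reading 1 it was 1 of 4 (AT1G74470), against 614 of 2549 probes. In the other settings, 0 list genes were called. In alternatives chosen after seeing the data, the difference in the log2 ratio of AT1G74470 over CHLM, 0.38, turned to -0.29 with quantile normalized values, and was 0.16 to 0.52 with 1 reading left out. In limma, the replicate block changed no call of CHLM, AT1G74470, HEMA3 or AT1G78620. Dim probes near 0 limit the precision of Z-ISO.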
